A study of Homo sapiens with 4 samples.

Results

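The genes described here are MYC, its partner MAX and the network of related factors around them, and they were followed by RNA sequencing in leukemia cells after knockdown of ANP32B. The members were fixed by name as MYC, MAX, MXD1, MXI1, MXD3, MXD4, MNT, MLX, MLXIP and MGA. Of these 10 genes, 9 were found in the table of 18567 gene IDs and all 9 passed the filter on low values, whereas MGA was not analysed here. Levels are given in TPM, a share of the RNA of a sample corrected for transcript length, so levels may be set side by side between genes.

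The series holds 4 samples labelled as Kasumi-1, an established human acute myeloid leukemia (AML) cell line. The control group, NC, has 2 samples, and the labels call these untreated and list no short hairpin RNA (shRNA). The sh-ANP32B group has 2 samples with shRNA against ANP32B, a nuclear phosphoprotein of the ANP32 family, and which of the study's hairpins each sample carried was not stated. The methods of the study describe a lentiviral control hairpin and puromycin selection. If the NC samples carried no hairpin, infection with selection and loss of ANP32B cannot be told apart in any difference given here. The comparison addresses whether knockdown of ANP32B changes MYC expression, and the surrounding network is added to it here. As RNA was pooled from all cells of a sample, fewer cells of a type and less RNA per cell cannot be told apart.

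MYC is a basic helix-loop-helix leucine zipper (bHLHZip) factor that binds the E-box sequence as a heterodimer with MAX and activates genes of ribosome production, metabolism and cell division. MAX also pairs with MXD1, MXI1, MXD3, MXD4, MNT and MGA, which occupy the same E-boxes and bring in repressor complexes, so that these factors are known as antagonists of MYC. MLX, a relative of MAX, pairs with MLXIP to switch on genes that answer to glucose, and it can also pair with some MXD factors. In blood cells MYC is generally high in dividing progenitors, and MXD factors rise as cells mature.

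The label and the knockdown were checked first. ANP32B was at 384 and 392 TPM in the control samples and at 51.8 and 41.2 TPM after knockdown (log2 fold change -3.04, SE 0.15, limma adjusted p = 0.00516). Of 10 markers of Kasumi-1 or myeloid blasts, 8 were in the table. Among them ELANE was at 292 to 505 TPM, CD33 at 58.5 to 70.1 TPM, RUNX1T1 at 15.6 to 31.2 TPM and CD38 at 4.15 to 8.26 TPM. KIT, which Kasumi-1 cells are known to carry at a high level, lay between 1.55 and 3.41 TPM in the 4 samples, and CD34 and MPO were not analysed here. HOXA9 was at 150.2 to 194 TPM and MEIS1 at 49.9 to 64.3 TPM, although both are usually low in AML with the RUNX1-RUNX1T1 fusion that Kasumi-1 carries. These 2 genes were looked up after the values had been seen. KIT, HOXA9 and MEIS1 thus go against the label in all samples. RUNX1T1, a partner in that fusion, was measurable, but its level alone does not show the fusion, which was not examined. The identity of the cells was not tested further, and they are called here by their group names. Among markers of other cell types, PECAM1, an endothelial and myeloid surface protein, was at 34.8 to 58.7 TPM, and its part in the results was not tested. The other markers of that list are not reported here.

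Across the table, 360 of 16817 genes tested (2.14%) rose and 199 (1.18%) fell with a limma adjusted p under 0.05, and the median log2 fold change was 0.083. With median-of-ratios scaling of the TPM values, 230 rose and 288 fell. The sh-ANP32B replicates differed from each other along GC content, with a Spearman rho of 0.577 across 15427 genes between that content and the log2 difference of replicate 2 minus replicate 1. Between the NC replicates rho was -0.21, and within groups the SD averaged 0.17 (NC) and 0.27 (sh-ANP32B) on the log2 scale. A fit that leaves out an sh-ANP32B replicate therefore takes its spread from the closer NC pair alone. Such fits pass 24.3% of all genes without sh-ANP32B replicate 1 and 20.7% without replicate 2, against 3.32% with all samples, 1.93% without NC replicate 1 and 1.62% without NC replicate 2.

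The E-box is shown first, since it is the DNA site that all these dimers share. The canonical form CACGTG, which reads the same on both strands, was searched in promoter windows of RefSeq (GRCh38.p14) that reach from 250 bases before to 50 bases after a gene's start. It was present in 7.26% of 35116 windows and in at least 1 window of 8.77% of 27305 genes. Of the 9 members with a window in that collection, MGA among them, 3 held the motif, MLX, MNT and MXD4. The stretches around it are printed 5′ to 3′ on the gene's own strand, with the motif in capitals.
MLX, chr17:42567030-42567075, plus strand: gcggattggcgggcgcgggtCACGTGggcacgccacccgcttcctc
MNT, chr17:2401228-2401273, minus strand: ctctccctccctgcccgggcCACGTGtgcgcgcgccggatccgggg
MXD4, chr4:2262322-2262359, minus strand: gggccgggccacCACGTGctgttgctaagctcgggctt

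The motif begins 50 bases before the RefSeq start of MLX, 193 bases before that of MNT and 238 bases before that of MXD4. A RefSeq start need not equal the end of the gene bounds given below, which are from GENCODE. A match is a run of letters and not evidence of binding, and no binding was measured in these files. Of these 3 genes, MXD4 was the member that passed the test of a higher level, and MLX and MNT did not pass it.

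MYC fell with knockdown of ANP32B, to 43.7% of its NC level. The gene (ENSG00000136997) lies on the plus strand of hg38 chromosome 8, bases 127735434 to 127742951. NC replicates 1 and 2 held 131 and 144 TPM, whereas sh-ANP32B replicates 1 and 2 held 56.7 and 63.2 TPM. Both knockdown samples lay far below both NC samples, and the gap between the groups was several times the gap within either. The means were 137 ± 9.13 TPM for NC and 60.0 ± 4.60 TPM for the knockdown (SD, n = 2 each). On the log2(TPM + 1) scale, which is used for every fold change here and understates the change of low genes, the difference was -1.18 (SE 0.14, 95% interval -1.51 to -0.85, limma adjusted p = 0.0261). Without the abundance trend in the variance, the limma adjusted p was 0.114 at the same difference.

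MAX, the obligate partner of MYC and of the antagonists, was higher in both knockdown samples but did not pass the adjusted threshold. It lies on the minus strand of chromosome 14, from 65006174 to 65102695. Its levels were 74.1 and 72.6 TPM in NC, against 110.9 and 110.3 TPM after knockdown, so that the groups stood apart and the replicates of each were nearly equal. The log2 difference was 0.59 (SE 0.13, 95% interval 0.29 to 0.89), with a limma adjusted p of 0.0581. That p was 0.00375 without sh-ANP32B replicate 1 and 0.00509 without replicate 2, but 0.463 and 0.512 without NC replicates 1 and 2, and 0.0827 with median-of-ratios scaling. It was 0.0394 when protein-coding genes alone were tested and 0.046 when 1 TPM was required in every sample. MAX shares 822 exonic bases (13.1% of its exons) with FNTB on the opposite strand, and FNTB had 18.0 and 17.0 TPM in NC, against 24.5 and 24.1 TPM in sh-ANP32B. As the labelled library kit does not keep strand, reads from shared stretches cannot be assigned to either gene.

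**Figure D1:**
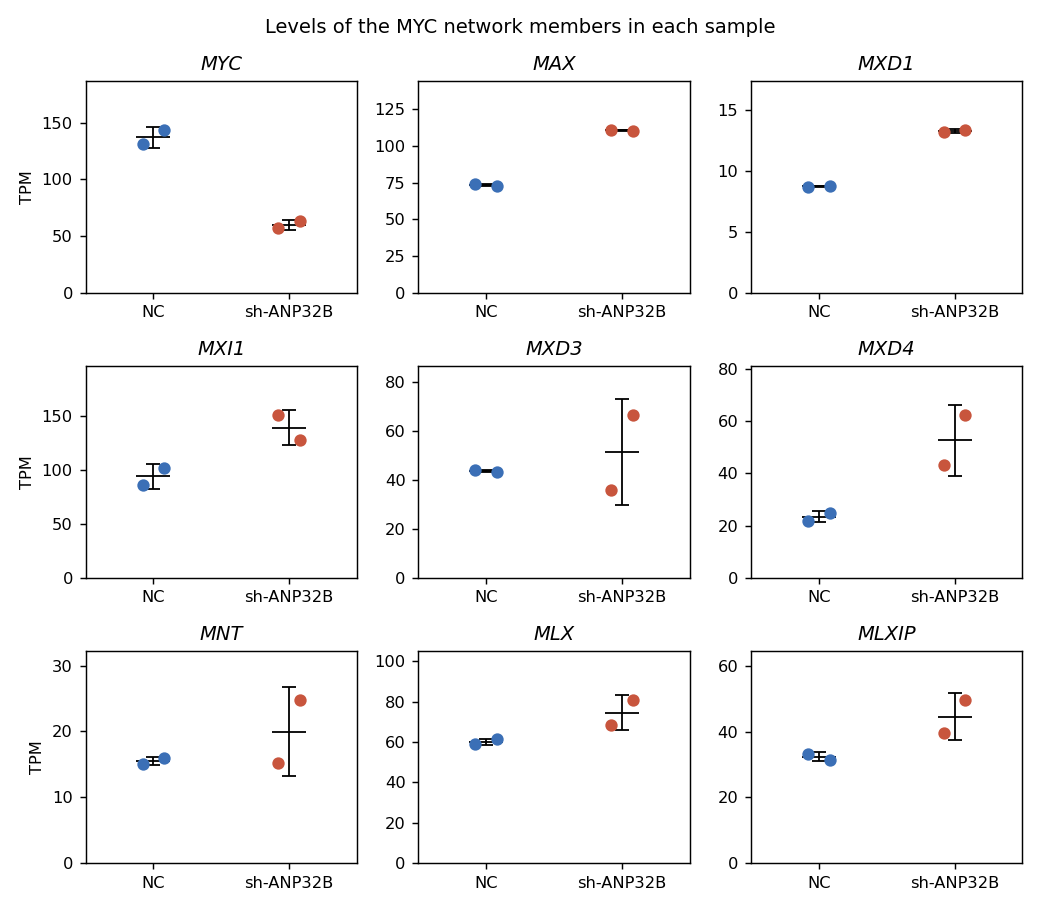
Level in TPM (vertical axes, each starting at 0) of the 9 members analysed, with a blue point for each NC sample and a red point for each sh-ANP32B sample, and the mean and SD in black (n = 2 each). MYC drops from 131 and 144 TPM to 56.7 and 63.2 TPM, the sh-ANP32B points of 6 members lie above both NC points, and the groups overlap for MXD3 and MNT.

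Among the antagonists of the MXD family, which recruit the SIN3 repressor complex through a short N-terminal domain, only MXD4 passed the test as higher. The intervals of MXI1 and MXD1, given below, overlap that of MXD4, so passing does not set MXD4 apart from them. MXD4 lies on the minus strand of chromosome 4, from 2247432 to 2262109. It had 21.8 and 24.9 TPM in NC, against 43.1 TPM in sh-ANP32B replicate 1 and 62.3 TPM in replicate 2. Both knockdown samples were above both NC samples, with replicate 2 the higher by a wide margin. The mean went from 23.4 ± 2.20 to 52.7 ± 13.6 TPM (SD, n = 2 each), a log2 difference of 1.12 (SE 0.21, 95% interval 0.62 to 1.62, limma adjusted p = 0.0455). The call lies close to the threshold, and without the abundance trend the limma adjusted p was 0.121. The limma adjusted p was 0.055 with median-of-ratios scaling, 0.0514 with upper-quartile scaling, 0.0516 with quantile normalization and 0.0891 without NC replicate 1. It was 0.0312 without NC replicate 2, and 0.000422 and 0.00512 without sh-ANP32B replicates 1 and 2.

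MXI1, also named MXD2 and the most abundant antagonist here, lies on the plus strand of chromosome 10 from 110207605 to 110287365. Its levels were 86.2 and 102 TPM in NC, against 151 and 128 TPM in sh-ANP32B. The groups stood apart, and sh-ANP32B replicate 1 was the highest sample. The log2 difference was 0.56 (SE 0.15, 95% interval 0.19 to 0.93) and did not pass the test (limma adjusted p = 0.0955). Without sh-ANP32B replicate 1 that p was 0.027 and without replicate 2 it was 0.00583, whereas it was 0.675 and 0.376 without NC replicates 1 and 2.

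MXD1, the founding member, known for its induction during myeloid maturation, was the lowest of the network. It lies on the plus strand of chromosome 2, from 69897688 to 69942945. MXD1 had 8.69 and 8.74 TPM in NC, against 13.1 and 13.3 TPM in sh-ANP32B, with replicates that were close together and groups that stood apart. The log2 difference of 0.55 (SE 0.18, 95% interval 0.11 to 0.99) did not pass the test (limma adjusted p = 0.139).

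MXD3, an MXD factor described in dividing rather than resting cells, had overlapping groups. It lies on the minus strand of chromosome 5, from 177301461 to 177312757, and had 43.9 and 43.1 TPM in NC. Replicates 1 and 2 of sh-ANP32B had 35.8 and 66.4 TPM and so fell on either side of the NC pair. The log2 difference was 0.16 (SE 0.28, 95% interval -0.50 to 0.82, limma adjusted p = 0.774). Without sh-ANP32B replicate 1 it was 0.60 with a limma adjusted p of 0.00587, and without replicate 2 it was -0.27 with 0.141, so each direction rests on a single library. Without NC replicates 1 and 2 that p was 0.928 and 0.945. Exons of MXD3 overlap those of PRELID1 on the opposite strand over 1148 bases (24.2% of the exons of MXD3) and those of RAB24 on the same strand over 926 bases (19.5%). PRELID1 had 162 and 168 TPM in NC, against 111 and 139.7 TPM in sh-ANP32B, and RAB24 had 43.9 and 36.1 TPM and then 62.6 and 77.2 TPM. The part of these neighbours in the value of MXD3 was not tested.

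MNT, a larger relative that also recruits SIN3 and is expressed in most tissues, lies on the minus strand of chromosome 17 from 2384073 to 2401104. It had 15.1 and 16.0 TPM in NC, against 15.2 and 24.8 TPM in sh-ANP32B. The first knockdown sample lay between the NC samples and the second above them, so the groups overlapped. The log2 difference of 0.30 (SE 0.25, 95% interval -0.29 to 0.90) did not pass the test (limma adjusted p = 0.504). It was -0.031 without sh-ANP32B replicate 2 and 0.64 without replicate 1, with limma adjusted p-values of 0.918 and 0.0187. Without NC replicates 1 and 2 that p was 0.883 and 0.823.

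On the MLX arm of the network, neither factor passed the test. MLX lies on the plus strand of chromosome 17 from 42567072 to 42573239 and had 58.9 and 61.2 TPM in NC, against 68.3 and 80.7 TPM in sh-ANP32B. Its log2 difference was 0.30 (SE 0.15, 95% interval -0.046 to 0.65, limma adjusted p = 0.266). MLXIP, the glucose-responsive partner also called MondoA, lies on the plus strand of chromosome 12 from 122078756 to 122147344. It had 33.4 and 31.5 TPM in NC, against 39.6 and 49.7 TPM in sh-ANP32B, a log2 difference of 0.44 (SE 0.17, 95% interval 0.041 to 0.84, limma adjusted p = 0.178). Both genes had all knockdown samples above all NC samples, with replicate 2 the higher. For MLX the limma adjusted p was 0.0207 without sh-ANP32B replicate 1, 0.257 without sh-ANP32B replicate 2, and 0.856 and 0.804 without NC replicates 1 and 2. For MLXIP it was 0.00902, 0.153, 0.652 and 0.743 in the same order. MLX shares 775 exonic bases (18.2% of its exons) with PSMC3IP on the opposite strand, which had 21.8 and 28.7 TPM in NC, against 17.2 and 16.0 TPM in sh-ANP32B.

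Counting the network as a whole, 2 of 9 members passed the adjusted threshold, MXD4 higher and MYC lower, beside the 2.14% and 1.18% of all genes tested that did so. With median-of-ratios scaling 0 members were higher and 1 was lower. By the study's own criterion, an unadjusted p under 0.05 with an absolute log2 fold change over 0.5, here with limma p-values, 5 of 9 passed against 18.6% of all genes. These were MYC lower and MAX, MXD1, MXI1 and MXD4 higher. The groups did not overlap for 7 of 9 members, against 54.6% of all genes. Apart from MYC every member analysed had a positive log2 difference, under each scaling too, and the median over the 9 was 0.44, against 0.083 over all genes. The number passing the adjusted threshold fell without NC replicate 1, stayed the same without NC replicate 2 and rose without either sh-ANP32B replicate. The number passing the study's criterion fell without either NC replicate. It rose without sh-ANP32B replicate 1 and stayed the same without sh-ANP32B replicate 2. No share of all genes past that criterion is given for these fits, so a change of the members cannot be told from one of the whole table.

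**Figure D2:**
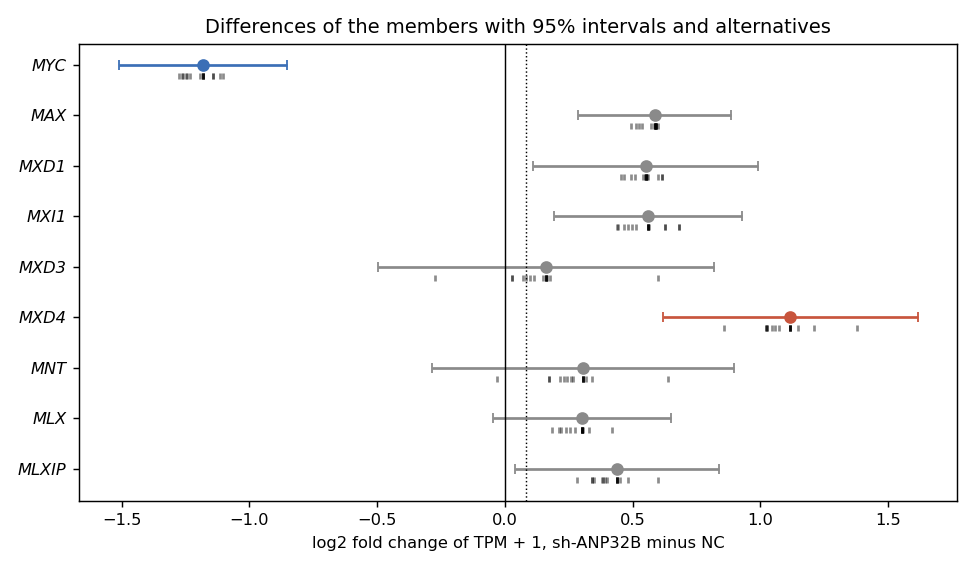
Log2 fold change of TPM + 1 (horizontal axis, sh-ANP32B minus NC) of each member, with its 95% interval, in blue where it passed the test as lower, red as higher and grey where it did not pass. Small ticks give the difference under each alternative and the dotted line is the median of all genes, 0.083. MYC sits at -1.18 and MXD4 at 1.12, and ticks of MXD3 and MNT cross 0.

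The gap between the knockdown replicates was read against GC content, because it differs by member. MXD3, MNT, MLXIP and MXD4 are the members richest in GC, at 61.3%, 61.3%, 57.8% and 57.6% of the longest transcript. Their sh-ANP32B replicate 2 exceeded replicate 1 by 0.87, 0.67, 0.32 and 0.52 on the log2 scale. The median gap of all genes in the same decile of GC content was 0.44 for MXD3 and MNT and 0.30 for MLXIP and MXD4. MXI1, at 43.7% GC, had the opposite gap of -0.24, where its decile had a median of -0.19. For MYC the gap was 0.15 with a decile median of -0.0037, and for MAX it was -0.0072 with a decile median of 0.10. MXD1 had a gap of 0.019 where its decile had -0.25, and MLX had 0.24 where its decile had 0.10. The gaps of these members were thus not close to the medians of their deciles. After correction for GC content 5 members passed the adjusted threshold, MYC lower and MAX, MXD1, MXI1 and MXD4 higher. Over all genes tested 17.9% passed after that correction, against 3.32% without it, so more genes passed across the whole table as well.

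**Figure D3:**
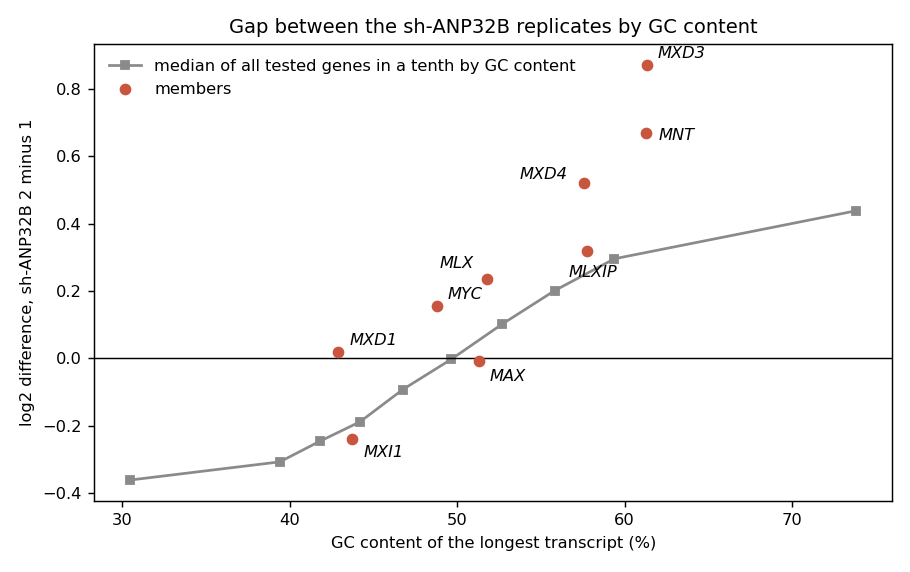
Log2 difference between sh-ANP32B replicates 2 and 1 (vertical axis) against the GC content in percent of the longest transcript (horizontal axis), with the members in red and the median of all tested genes in each decile of GC content in grey. MXD3 and MNT lie at the upper right with gaps of 0.87 and 0.67, and MXI1 lies below 0 at -0.24.

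The order of levels within the network differed between the groups. In NC the order by mean was MYC, MXI1, MAX, MLX, MXD3, MLXIP, MXD4, MNT and MXD1, and no neighbours in this order had overlapping replicate ranges. In sh-ANP32B it was MXI1, MAX, MLX, MYC, MXD4, MXD3, MLXIP, MNT and MXD1. Here the ranges of neighbours overlapped from MYC through MXD4 and MXD3 to MLXIP, so these 4 were not separated. MYC thus went from the most abundant of the 9 RNAs in both NC samples to rank 4 and rank 5 in sh-ANP32B replicates 1 and 2.

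The 4 MXD family RNAs were summed in each sample as a simple measure of antagonist RNA beside MYC. The sum was 161 and 179 TPM in NC, against 243 and 270.0 TPM in sh-ANP32B. Its ratio to MYC was 1.23 and 1.25 in NC and 4.29 and 4.27 in sh-ANP32B, so the mean ratio was 3.46 times higher with nearly equal values within each group. The ratio of MAX to MYC was 0.566 and 0.505 in NC and 1.95 and 1.74 in sh-ANP32B. These ratios are descriptions without a test, they combine a lower denominator with a higher numerator, and they concern RNA and not protein. MXI1 made up 53.7% and 57.1% of the MXD sum in NC and 62.1% and 47.4% in sh-ANP32B. The share of MXD4 went from 13.6% and 13.9% to 17.7% and 23.1%, with no overlap between the groups, whereas MXD1 stayed between 4.88% and 5.41% of the sum in all samples. MXD3 made up 27.3% and 24.1% in NC and 14.7% and 24.6% in sh-ANP32B. From sh-ANP32B replicate 1 to replicate 2 MXI1 fell while MXD3 and MXD4 rose, so nearly equal ratios do not mean that each member was reproduced. The ratio was not recomputed after correction for GC content.

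**Figure D4:**
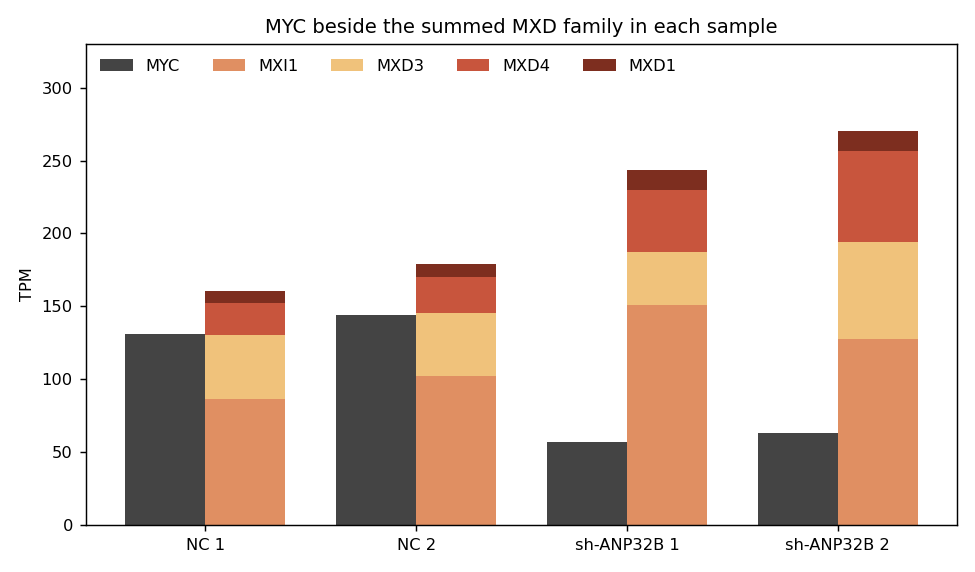
Level in TPM (vertical axis, from 0) of MYC in dark bars and of MXI1, MXD3, MXD4 and MXD1 stacked beside it, for each of the 4 samples (horizontal axis). The stacked bar is 1.23 and 1.25 times the MYC bar in the NC samples and 4.29 and 4.27 times in the sh-ANP32B samples.

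The genes whose pattern over the 4 samples was most like that of MYC were found by the root-mean-square difference in log2(TPM + 1) from the NC mean, among 9742 genes with a mean of at least 10 TPM. Of the closest 5, only CMSS1 and PRKCQ-AS1 had a gene name in the annotation. CMSS1, which codes for a small-subunit ribosome factor homolog, had 59.5 and 59.8 TPM in NC, against 25.1 and 24.7 TPM in sh-ANP32B, with a distance of 0.0844. The long noncoding RNA PRKCQ-AS1 had 13.6 and 17.1 TPM and then 6.20 and 7.34 TPM, with a distance of 0.104. The nearest of the unnamed IDs was ENSG00000276924, with a distance of 0.075 and 308 and 321 TPM in NC against 126 and 159 TPM in sh-ANP32B.

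Other factors that bind E-boxes were read next. Of 12 listed, MYCN, MYCL and MLXIPL were not analysed here, and of the 9 tested 2 rose and 0 fell, beside 2.14% and 1.18% of all genes, with a median log2 difference of 0.52 against 0.083 over all genes. The 2 were TFEB and TFE3, regulators of lysosome and autophagy genes. TFEB had 27.8 and 26.5 TPM in NC, against 49.8 and 71.6 TPM in sh-ANP32B (log2 difference 1.11, SE 0.20, limma adjusted p = 0.044). TFE3 had 27.5 and 28.0 TPM and then 47.6 and 53.8 TPM (0.84, SE 0.15, limma adjusted p = 0.044). With median-of-ratios scaling neither passed, and neither did without NC replicate 2. The list's count was 6 without sh-ANP32B replicate 1, 5 without sh-ANP32B replicate 2 and 1 without NC replicate 1.

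The cofactors through which the network acts showed no gene past the adjusted threshold, beside 3.32% of all genes tested. In lists this short a count of 0 is near that share. Of 17 MYC coactivators (acetyltransferase, chromatin and elongation factors), 0 passed in limma, 5 had an unadjusted p under 0.05 and the median log2 difference was 0.012. Their largest differences were -0.67 for ACTL6A, from 87.3 and 101 to 65.6 and 52.6 TPM, and -0.66 for RUVBL1, from 66.3 and 61.6 to 36.3 and 44.1 TPM. Of 18 subunits and partners of the SIN3 complex, through which MXD factors and MNT repress, 0 passed in limma, 3 had an unadjusted p under 0.05 and the median was 0.13. The largest were 0.68 for SIN3B (53.5 and 56.8 TPM, then 83.7 and 95.1 TPM, limma adjusted p = 0.0544) and -0.62 for the histone chaperone RBBP4 (159 and 152 TPM, then 115 and 89.1 TPM). Of 12 partners of MGA in a Polycomb repressor complex, 0 passed in limma, 3 had an unadjusted p under 0.05 and the median was -0.11, with E2F6 at -0.51 and RNF2 at -0.46. Leaving out an sh-ANP32B replicate brought these counts to 5 for the coactivators with either left out, to 4 and 5 for SIN3, and to 4 and 2 for the MGA partners. Over all genes 23.8% had an unadjusted p under 0.05, and the fits without sh-ANP32B replicates 1 and 2 passed 24.3% and 20.7%, so these counts are near those of the whole table. WDR5, HDAC1 and HDAC2 each stand in 2 of the lists.

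Of 22 genes known to act on MYC RNA or protein, 21 were tested and 1 passed, SKP2, a ubiquitin ligase subunit that targets MYC and the inhibitor p27. This share of 4.76% is near the 3.32% of all genes that passed in either direction. SKP2 had 85.5 and 89.6 TPM in NC, against 46.8 and 48.8 TPM in sh-ANP32B (log2 difference -0.86, SE 0.13, limma adjusted p = 0.0371). The list's median was 0.017. PVT1, the noncoding neighbour of MYC on chromosome 8, had 25.4 and 17.6 TPM in NC, against 21.2 and 22.9 TPM in sh-ANP32B, within the range of NC (log2 difference 0.052, limma adjusted p = 0.915). Without either NC replicate the count of the list was 0, and it was 10 and 5 without sh-ANP32B replicates 1 and 2.

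Genes that MYC is known to activate were read as a further list. The list was written by hand with earlier results of these data known, so its direction is not independent evidence. Of 40 tested, 12 fell, 1 rose and 27 did not pass, beside 1.18% of all genes that fell and 2.14% that rose. A negative log2 difference was found for 34 of the 40, against 42.1% of all genes, and the median was -0.55 against 0.083 over all genes. NOP56, a core protein of the particles that methylate ribosomal RNA, had 152 and 158 TPM in NC, against 64.6 and 83.7 TPM in sh-ANP32B (log2 difference -1.07, limma adjusted p = 0.0354). The ribosome assembly factor MRTO4 went from 63.7 and 57.7 to 29.3 and 31.2 TPM (-0.98), and the nucleolar protein NOP16 from 39.4 and 41.9 to 18.0 and 23.1 TPM (-0.96). The others named by size were PUS7 at -0.94, NOLC1 at -0.92 and RRS1 at -0.90, each with knockdown samples below both NC samples.

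HK2, the first enzyme of glycolysis and a gene induced by MYC in many cells, moved the other way. Its levels were 236 and 241 TPM in NC, against 501 and 519.7 TPM in sh-ANP32B, a log2 difference of 1.09 (SE 0.12, limma adjusted p = 0.0258). The count of activated targets past the threshold was 2 without NC replicate 1, 1 without NC replicate 2, 27 without sh-ANP32B replicate 1 and 30 without sh-ANP32B replicate 2. Of these, 1 was lower without NC replicate 1 and 0 were lower without NC replicate 2.

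Of 18 genes that MYC is known to repress, 14 were tested. Of these 6 rose and 0 fell, beside 2.14% and 1.18% of all genes, and the median log2 difference was 0.68 against 0.083 over all genes. A negative log2 difference was found for 2 of the 14, against 42.1% of all genes. This list too was written with earlier results known. BTG2, an inhibitor of proliferation, had 7.38 and 11.5 TPM in NC, against 23.3 and 26.3 TPM in sh-ANP32B (1.33, SE 0.24, limma adjusted p = 0.044). CDKN1A, which codes for the cell cycle inhibitor p21, went from 15.4 and 18.3 to 30.8 and 41.5 TPM (1.05, limma adjusted p = 0.0482). NDRG1 rose by 0.95, the ferritin heavy chain FTH1 by 0.95, the cyclin CCNG2 by 0.86 and the transcription factor KLF6 by 0.85. The count past the threshold changed with any sample left out. It was smaller without either NC replicate and larger without either sh-ANP32B replicate. Of the MLXIP and MLX targets, ARRDC4 was not analysed here, and 0 of the other 2 passed in limma, although both had an unadjusted p under 0.05. TXNIP, a brake on glucose uptake, had 430.0 and 427 TPM in NC, against 678 and 598 TPM in sh-ANP32B (0.57, limma adjusted p = 0.0599), and KLF10 differed by 0.51.

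**Figure D5:**
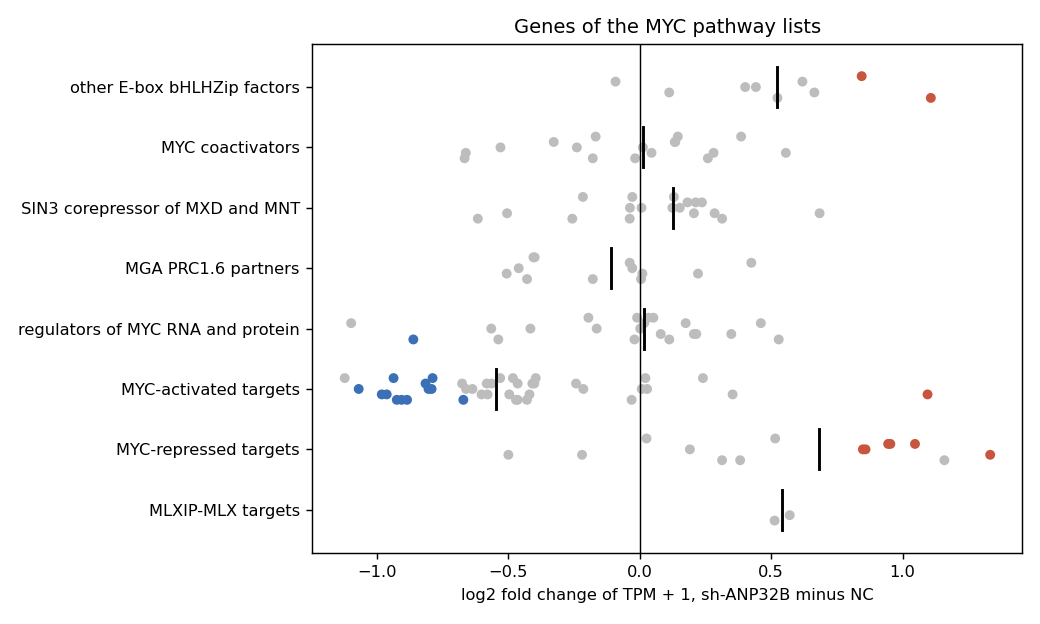
Log2 fold change of TPM + 1 (horizontal axis, sh-ANP32B minus NC) of each tested gene of 8 lists (vertical axis), in red where it passed the adjusted threshold as higher, blue as lower and grey where it did not pass, with the median of each list as a black bar. The medians are -0.55 for activated targets and 0.68 for repressed targets, and HK2 is the red point at 1.09 among the activated targets.

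The E-box was also searched in the targets. It was present in 17 of 34 activated targets with a RefSeq window and in 4 of 13 repressed targets (30.8%), beside 8.77% of all genes. Among the activated targets it was present in 6 of 10 that fell and in 10 of 23 that did not pass the test, a difference that was not tested. The stretches printed are from the targets that passed the test and hold the motif before a RefSeq start, 3 that fell and then 3 that rose. Such a start need not be the outer end of the gene, so a printed stretch can lie within the gene's bounds. This choice was made after the values had been seen, and the motif is in capitals.
CDK4, chr12:57752386-57752431, minus strand: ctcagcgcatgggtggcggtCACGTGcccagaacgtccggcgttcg
HSPD1, chr2:197500337-197500382, minus strand: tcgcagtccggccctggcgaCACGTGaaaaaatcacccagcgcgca
LYAR, chr4:4290060-4290105, minus strand: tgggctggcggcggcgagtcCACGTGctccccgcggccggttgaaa
HK2, chr2:74835001-74835046, plus strand: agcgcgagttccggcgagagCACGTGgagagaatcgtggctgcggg
CCNG2, chr4:77157157-77157202, plus strand: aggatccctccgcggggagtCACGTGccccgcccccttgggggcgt
KLF6, chr10:3785281-3785326, minus strand: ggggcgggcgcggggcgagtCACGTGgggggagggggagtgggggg

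CDK4, the G1 kinase, had 138 and 138 TPM in NC, against 72.4 and 84.3 TPM in sh-ANP32B, a log2 difference of -0.81. The mitochondrial chaperone HSPD1 went from 839.5 and 802 to 519.9 and 425 TPM (-0.80), and the nucleolar protein LYAR from 54.3 and 51.1 to 27.6 and 28.5 TPM (-0.88). The same 6 letters thus stood before a RefSeq start of genes that fell and of genes that rose. HK2 and CDK4 hold further copies of the motif in the same window that are not printed.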

How the data were processed

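RNA from 2 NC and 2 sh-ANP32B samples was prepared with an Illumina TruSeq kit. Per the submitters' processing notes and the methods of the study, the authors aligned the reads to hg38 with HISAT2 2.0.5. The deposited values are TPM, as the columns hold decimals that sum to between 997812 and 998314. The program and annotation behind the TPM values are not given in the sources used here. TPM keeps no depth, so no counting error or floor was computed, and TPM values are shares, so abundant genes move all others. Mitochondrial genes made up 8.43% to 13.1%.

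Of 18567 IDs, 16986 were matched to GENCODE 44. The 16817 genes that reached 1 TPM in 2 or more samples were converted to log2(TPM + 1) and compared with limma 3.58.1 (R 4.3.3) with an abundance trend, two-sided, with Benjamini-Hochberg adjustment over all of them. The fit was also run on simulated data with the same spread in both groups and no dependence on GC content. That run therefore does not cover the gap between the sh-ANP32B replicates or their wider spread. The study's DESeq2 test needs counts and was not run. With 2 samples against 2 an exact permutation test cannot give a p under 0.333, so none was run. Nothing states that the samples were separate cultures, so p-values measure the spread between these samples, which may be technical.

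The members and gene lists were chosen with earlier results of these data known. Beside the members, the text names of each list the genes with an adjusted p under 0.05, up to 6 a direction by size, otherwise the 2 with the largest difference. Of the 5 genes most like MYC, it names those with a gene name and the nearest unnamed ID. Also named are MYCN, MYCL, MLXIPL, TXNIP, ARRDC4, PVT1 and ANP32B. CDK4, HSPD1 and LYAR were added for their sequences, and the overlapping genes for shared exons. Groups share replicate numbers, and nothing states whether the samples were paired. The alternatives were other scalings, filters, a pseudocount of 0.1, GC correction by loess, a replicate block, a fit without the trend, protein-coding genes alone, and each sample left out. Figures were drawn with matplotlib 3.10.9 in Python 3.11.15.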

Additional observations from a re-analysis of the deposited data

How the results depend on the processing

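The direction of MYC was the same under all 16 alternatives, with log2 differences from -1.27 to -1.10 (-1.26 to -1.10 with a sample left out), and its limma adjusted p exceeded 0.05 once, at 0.114 and -1.18 without the abundance trend. Of 9 members, 2 passed the adjusted threshold as reported, 1 with median-of-ratios scaling, upper-quartile scaling or quantile normalization, 5 with GC correction, 4 with the replicate block and GC correction together, 0 without the trend, and 1 to 8 with a sample left out. Without the trend 0 of 16817 genes passed, although 3701 had an unadjusted p under 0.05. The 5 members past the study's criterion became 2 with median-of-ratios scaling, 3 with upper-quartile scaling, 3 with quantile normalization and 2 to 7 with a sample left out. Of the 130 list genes, 22 passed as reported, 63 with GC correction, 57 with the block and GC correction, 0 without the trend, 34 among protein-coding genes and 3 to 68 with a sample left out. Without sh-ANP32B replicate 2 the differences of MXD3 and MNT reversed, to -0.27 and -0.031, and their ranges with a sample left out were -0.27 to 0.60 and -0.031 to 0.64. The cause was not tested.

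The 559 genes past the threshold became 2759 with GC correction, 2544 with the block and GC correction, 1473 with the block, 966 among protein-coding genes and 273 to 4079 with a sample left out. The ratio of the MXD sum to MYC was 3.46 times higher in sh-ANP32B, 3.41 times with MNT added and 3.43 to 3.48 times with a sample left out. The deviations of samples sharing a replicate number had a Pearson r of -0.093. The replicate gaps of both groups also followed GC content, so this value cannot decide whether the samples were paired. The replicate block left 2 members past the threshold, gave 31 list genes, and gave MYC a limma adjusted p of 1.21e-05 on 1 residual degree of freedom. The unknown depth limits every value.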
